A study of Mus musculus with 17 samples.

Results

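Prostaglandin synthesis was followed through 5 genes of the pathway, Pla2g4a, Ptgs1, Ptgs2, Ptges and Ptgis, on 17 oligonucleotide arrays of NIH 3T3 cells, an immortalised line of mouse embryonic fibroblasts. A probe set, a group of short probes that together give 1 signal for a transcript, was taken when the platform annotation gave it to a single one of these genes. That left 10 probe sets for 4 of the 5 genes, out of 12636 genes named on the arrays. No probe set was taken for Ptgs1, which was not analysed here. Ptgs2 had 3 probe sets (1417262_at, 1417263_at and 104647_at), Ptges had 3 (1449449_at, 1449450_at and 104406_at), Pla2g4a had 2 (1448558_a_at and 99513_at) and Ptgis had 2 (1448816_at and 104538_at).

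All cells were quiescent before treatment, and each of 3 experiments had 1 array for every condition. The first, the Src experiment (8 arrays, 6 of the 10 probe sets) held vehicle, SU6656 at 2 µM, UO126 at 10 µM and LY294002 at 7.5 µM, each without and with platelet-derived growth factor (PDGF) at 25 ng/ml for 1 h. The MEK experiment (6 arrays) held untreated cells, UO126 at 10 µM and PD98059 at 7.5 µM, each without and with PDGF at 25 ng/ml; its PDGF time is not given in the sources used here. A repeat of the Src experiment (3 arrays) held vehicle, PDGF at 25 ng/ml for 1 h, and PDGF with SU6656 at 2 µM, and shares with the MEK experiment an array design that has the other 4 probe sets. UO126 and PD98059 inhibit the kinase MEK, SU6656 inhibits Src family kinases and LY294002 inhibits phosphoinositide 3-kinase. The untreated or vehicle array of an experiment is called its basal array. Whether arrays stem from separate cultures is not stated in the labels; p-values then cover no more than the spread between these arrays, and that spread may be technical.

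The pathway begins when a phospholipase A2 frees arachidonic acid from membrane lipids, a step for which Pla2g4a encodes the cytosolic, calcium-dependent enzyme. The cyclooxygenases Ptgs1 and Ptgs2 (COX-1 and COX-2) turn it into the unstable prostaglandin H, from which Ptges makes prostaglandin E and Ptgis makes prostacyclin. Ptgs1 is known as the constitutive isoform in many tissues, whereas Ptgs2 is an immediate-early gene that serum and growth factors induce in fibroblasts. Prostaglandin E acts on cells through the EP receptors, of which Ptger4 encodes EP4.

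The promoters of Ptgs2 and of Ptger4, both of which rose with PDGF in the data that follow, are shown beside that of Pla2g4a, which did not pass the test and lies next to Ptgs2 on chromosome 1 with 0 protein-coding genes between them. Sequences and coordinates are from RefSeq on mouse assembly GRCm38.p6, from 250 bases before the annotated start to 30 bases from the start on, 5′ to 3′ on the strand of the gene. The window of Ptgs2 is chr1:150099781-150100060 on the plus strand, that of Ptger4 is chr15:5244158-5244437 on the minus strand and that of Pla2g4a is chr1:149961261-149961540 on the minus strand. Capitals mark matches to 8 motifs searched on both strands. The cAMP response element was searched as TGACGTCA and as its part TGACG. The letters for an E-box were CACGTG and those for an AP-1 site TGANTCA. A C/EBP palindrome was searched as TTGCGCAA, and the NF-kB site in a form of 10 letters. Sp1 sites were searched as GGGCGG and the TATA box as TATAAA.
Ptgs2: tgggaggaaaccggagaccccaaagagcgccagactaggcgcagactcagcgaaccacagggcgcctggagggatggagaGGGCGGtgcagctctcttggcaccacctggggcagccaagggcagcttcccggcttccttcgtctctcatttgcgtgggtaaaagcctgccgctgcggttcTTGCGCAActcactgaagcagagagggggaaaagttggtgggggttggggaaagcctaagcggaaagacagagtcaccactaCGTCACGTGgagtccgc
Ptger4: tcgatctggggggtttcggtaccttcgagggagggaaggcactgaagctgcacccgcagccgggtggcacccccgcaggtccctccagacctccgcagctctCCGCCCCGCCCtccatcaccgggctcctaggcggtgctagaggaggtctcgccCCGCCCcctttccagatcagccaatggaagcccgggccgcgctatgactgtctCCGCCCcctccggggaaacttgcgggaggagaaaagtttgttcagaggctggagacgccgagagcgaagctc
Pla2g4a: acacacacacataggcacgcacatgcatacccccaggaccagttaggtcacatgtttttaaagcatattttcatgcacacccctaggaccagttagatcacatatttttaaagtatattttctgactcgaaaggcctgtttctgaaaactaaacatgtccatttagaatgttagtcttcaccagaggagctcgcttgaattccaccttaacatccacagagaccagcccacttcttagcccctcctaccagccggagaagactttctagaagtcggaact

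In the Ptgs2 window the Sp1 letters lay 170 to 165 bases and the C/EBP letters 69 to 62 bases upstream of the annotated start. TGACG, read on the opposite strand, lay at positions 14 to 18 from the start and shared 2 of its bases with the E-box at positions 17 to 22. The Ptger4 window held 4 copies of GGGCGG, all read on the opposite strand, of which the first and second shared 1 base. The Pla2g4a window, taken at the start of its outermost transcript, held none of the 8 motifs. For the other genes the first window listed was used. Among 32851 windows of the same length, TTGCGCAA was in 0.18%, CACGTG in 6.79%, TGACG in 19.9% and GGGCGG in 34.7%. TGACGTCA was in 1.74%, TGANTCA in 7.46%, the NF-kB form in 4.53% and TATAAA in 13.1%, and the windows of Ptgs2 and Ptger4 held none of these. The Ptges window held 2 copies of GGGCGG. These matches are descriptions of the letters in the windows, and no binding was measured. Positions count from the annotated start used here, and bases outside the windows were not searched.

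The deposited values are linear signal, scaled on every array to the same trimmed mean (500.2 to 500.36 signal units). Fibroblast markers stood high, with 13 of 14 tested at a median percentile of 99.7 among the probe sets of the Src experiment and 94.8 in the other table. Summed signals of the fibroblast list were 215890 to 257320 and 74267 to 140090 units, against 1156 to 1443.7 and 1072.3 to 2020.8 for macrophage and leukocyte markers, 431.9 to 783.3 and 458.7 to 667.3 for epithelial ones and 311 to 405.9 and 74.6 to 230.0 for endothelial ones, and 303.7 to 567.2 and 298.5 to 523 for adipocyte and muscle ones. Of these lists only Cldn3 (1.42 with PDGF, Src experiment) and Pdgfra (−0.65, 9-array table) passed the test for PDGF. For Gapdh the ratio of 3′ to 5′ probe sets was 1.13 on the untreated array of the MEK experiment. On the other 16 arrays it was 0.739 to 0.907. The fitted PDGF effects of the 9-array table are also given without that untreated array, which takes its whole pair out of the fit. For actin the ratio was highest on the vehicle array of the repeat (1.67). It was 1.47 on the untreated array of the MEK experiment and 1.17 to 1.46 on the remaining arrays.

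PDGF raised Ptgs2 on every pair of arrays, while none of the 7 probe sets of Pla2g4a, Ptges and Ptgis passed the test. Against the basal array of the same experiment, Ptgs2 rose by 3.86 ± 0.18 on the log2 scale (SD, n = 3 experiments, brightest probe set of each table), a mean of 14.5-fold. In RNA from whole cultures, more cells with the transcript and more transcript per cell cannot be told apart. On the same scale Pla2g4a stood at 0.02 ± 0.26, Ptges at 0.01 ± 0.54 and Ptgis at −0.05 ± 0.18 (SD, n = 3 each). The Ptgs2 ratio lay between 3.67 and 4.03 in the 3 experiments, whereas the ratios of the other genes lay on both sides of 0. Log2 ratios and effects here are of log2(signal + an offset), after normalisation between the arrays of a table, so they understate the change of a low signal. In the limma fit across all probe sets, with arrays paired by inhibitor and experiment, the members past an adjusted p of 0.05 were 2 of 6 in the Src experiment and 1 of 4 in the table of the MEK experiment and the repeat (the 9-array table). All 3 were probe sets of Ptgs2. The share of all probe sets past it was 3.31% (525 of 15838, 396 higher and 129 lower) and 1.69% (147 of 8695, 124 higher and 23 lower).

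**Figure D1:**
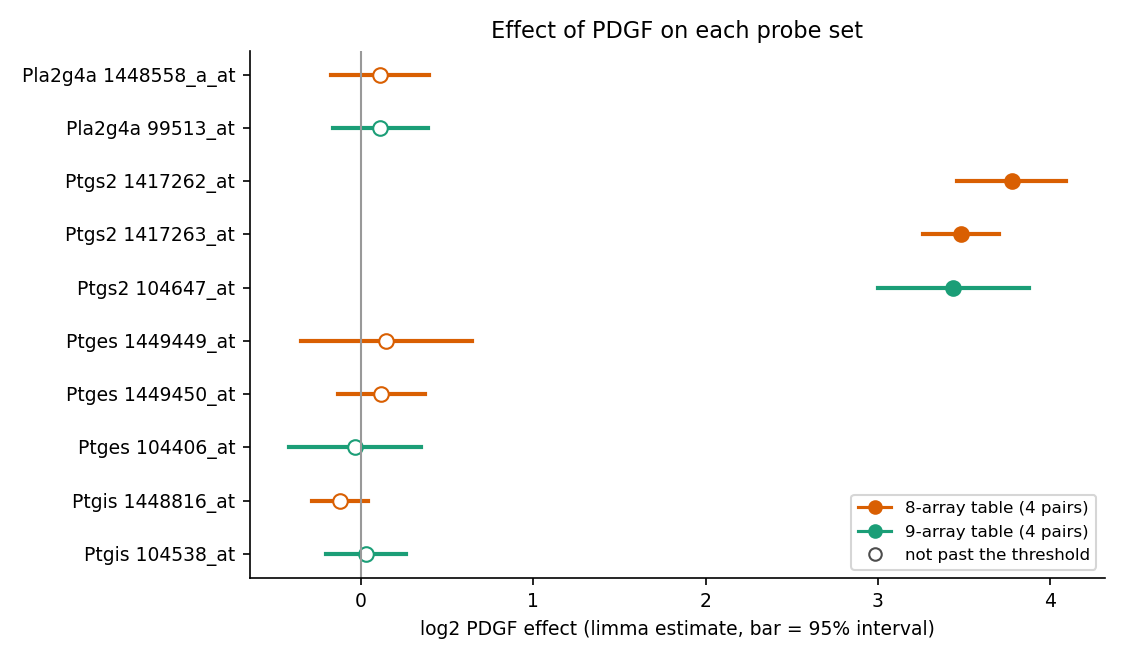
Effect of PDGF on the 10 probe sets, as the log2 estimate of the limma fit on the horizontal axis with its 95% interval as a bar; filled points passed an adjusted p of 0.05. The 3 Ptgs2 estimates lie between 3.44 and 3.78, and the intervals of the other 7 probe sets all include 0.

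Pla2g4a, the enzyme that supplies arachidonic acid, showed no separation by PDGF. Its probe set 1448558_a_at in the Src experiment had 416 signal units with vehicle, 267 with SU6656, 396 with UO126 and 377 with LY294002. With PDGF it had 340.3 units alone, 317 with SU6656, 473 with UO126 and 385 with LY294002. The ranges without PDGF (267 to 416) and with it (317 to 473) overlapped. In the MEK experiment 99513_at had 551 units untreated, 686.5 with UO126, 577 with PD98059, 693 with PDGF alone, 712 when UO126 was added and 632 when PD98059 was added. In the repeat it had 450.0 units with vehicle, 422 with PDGF and 362 with PDGF and SU6656. PDGF effects were 0.11 for both probe sets (SE 0.126 and 0.124, limma adjusted p 0.728 and 0.771), with 95% intervals of −0.17 to 0.39. Without the untreated array of the MEK experiment the second was 0.05. PDGF over basal was positive in the MEK experiment (0.30) and negative in the Src experiment (−0.20) and the repeat (−0.04). The ratio of Pla2g4a farthest from 0 for an inhibitor was that of SU6656 without PDGF, at −0.58, and with PDGF it was −0.10 in the Src experiment and −0.23 in the repeat.

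Ptgs2, the inducible cyclooxygenase, separated the arrays with PDGF from those without it. In the Src experiment 1417262_at had 111 units with vehicle, 71.7 with SU6656, 140.0 with UO126 and 172 with LY294002. With PDGF it had 1959 units alone, 1114 with SU6656, 3289.5 with UO126 and 2484.5 with LY294002. The lowest signal with PDGF was thus far above the highest without it, and both extremes with PDGF were inhibitor arrays. The other probe set, 1417263_at, kept this order with PDGF (3501 units alone, 2031 with SU6656, 5148 with UO126 and 4063 with LY294002). Without PDGF it had 247 units with vehicle, 183 with SU6656, 361 with UO126 and 381 with LY294002. In the MEK experiment 104647_at had 189.9 units untreated, 397 with UO126 and 176 with PD98059, and 3169 with PDGF alone, 3137 when UO126 was added and 1579 when PD98059 was added. In the repeat it had 133 units with vehicle, 2331 with PDGF and 1235 with PDGF and SU6656. With 1 array per condition the order within a group has no spread of its own, and neighbours such as PDGF and PDGF with UO126 in the MEK experiment are nearly the same height.

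**Figure D2:**
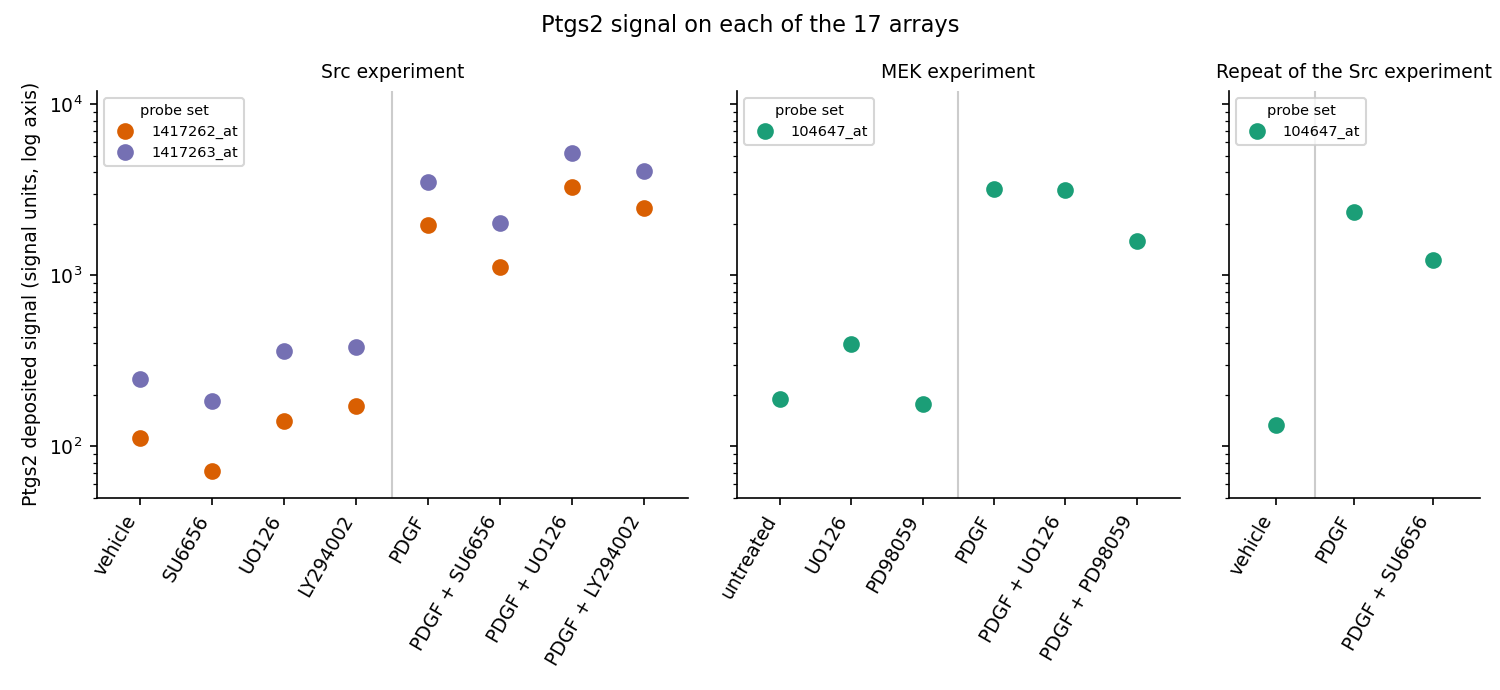
Deposited Ptgs2 signal on each of the 17 arrays, on a log axis in signal units, by experiment; each point is 1 probe set on 1 array, and a vertical line parts the arrays without PDGF from those with it. For every probe set all arrays with PDGF lie above all arrays without it, and the arrays with PDGF plus SU6656 or PD98059 lie lowest among the arrays with PDGF of their experiment.

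The fitted PDGF effect on Ptgs2 was 3.78 (SE 0.140, limma adjusted p 7.10e-07) for 1417262_at and 3.48 (SE 0.0987, adjusted p 2.02e-07) for 1417263_at, or 13.7-fold and 11.2-fold. In the 9-array table it was 3.44 (SE 0.198, adjusted p 6.94e-06), or 10.8-fold, and without the untreated array of the MEK experiment it was 3.30. The 3 probe sets ranked 9th, 14th and 11th by the size of the estimate among 15838, 15838 and 8695 probe sets. Each was higher with PDGF in 4 of 4 pairs, with pair differences of 3.47 to 4.30, 3.27 to 3.68 and 2.83 to 4.03. Ptgs2 was thus higher with PDGF in the presence of each inhibitor too, by 3.47 and 3.27 within SU6656, 4.30 and 3.68 within UO126 and 3.59 and 3.31 within LY294002 in the Src experiment (1417262_at, then 1417263_at), and by 2.83 within UO126 and 3.03 within PD98059 in the MEK experiment. On single arrays, 18.7% of kept probe sets differed at least 1.5-fold between PDGF and basal in the MEK experiment, against 11.9% for the Src experiment and 21.5% for the repeat, and the members past that size were Ptgs2 probe sets alone (1 of 4, 2 of 6 and 1 of 4).

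Ptges, which makes prostaglandin E from the cyclooxygenase product, showed no change of 1 sign. Its brighter probe set in the Src experiment, 1449450_at, had 564 units with vehicle, 635 with SU6656, 548.5 with UO126 and 671 with LY294002. With PDGF it had 568 units alone, 558 with SU6656, 600.3 with UO126 and 899.7 with LY294002. The last array stood highest of the 8, and the other 7 overlapped. The dim probe set 1449449_at, at the 41st percentile of mean signal, ranged from 69.8 units with UO126 to 157 with LY294002, and its highest array was thus not the one of 1449450_at. In the MEK experiment 104406_at was highest on the untreated array, at 578 units, with 493 for UO126, 377 for PD98059, 394 for PDGF, 465 for PDGF and UO126 and 355 for PDGF and PD98059. In the repeat it was lowest on the basal array, at 332 units with vehicle against 464.5 with PDGF and 458 with PDGF and SU6656. PDGF over basal was accordingly −0.54 for the MEK, 0.04 for the Src experiment and 0.53 for the repeat. The fitted PDGF effects were 0.15, 0.12 and −0.04 (1449449_at, 1449450_at and 104406_at; limma adjusted p 0.806, 0.666 and 0.959). The negative ratio in the MEK experiment has the untreated array with the high Gapdh 3′ to 5′ ratio as its denominator. The positive ratio of the repeat has as its denominator the vehicle array, which had the highest actin ratio (1.67). The Gapdh ratio of that vehicle array was 0.831, against 0.833 on the PDGF array of the repeat. The part of these arrays in the ratios was not tested. PDGF within UO126 and within PD98059, which use neither the untreated array nor the array with PDGF alone, gave −0.07 and −0.06. Without the untreated array the fitted effect for 104406_at turned to 0.13 (limma adjusted p 0.879). On the pairs of the MEK experiment alone it was −0.22 (0.568). Leaving out the array with PDGF alone instead also gave 0.13, since the fit loses the same pair either way. The shift thus cannot be assigned to the untreated array.

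Ptgis, the prostacyclin synthase, had the smallest spread between pairs with and without PDGF of the 4 genes (SD 0.119 and 0.0648 over 4 pairs, against 0.231 and 0.148 for Pla2g4a). In the Src experiment 1448816_at had 2156 units with vehicle, 1780.2 with SU6656, 2144.5 with UO126 and 2062 with LY294002. With PDGF it had 1845 units alone, 1867 with SU6656, 1958 with UO126 and 1974 with LY294002, within the range of the arrays without PDGF. In the MEK experiment 104538_at ran from 881 units with PD98059 to 1029.5 untreated, and in the repeat from 1352 with PDGF and SU6656 to 1609.8 with PDGF. PDGF effects were −0.12 (SE 0.0718, limma adjusted p 0.441) and 0.03 (SE 0.105, adjusted p 0.948; 0.05 without the untreated array of the MEK experiment). Their 95% intervals, −0.29 to 0.04 and −0.21 to 0.26, hold no change as large as 1.5-fold.

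**Figure D3:**
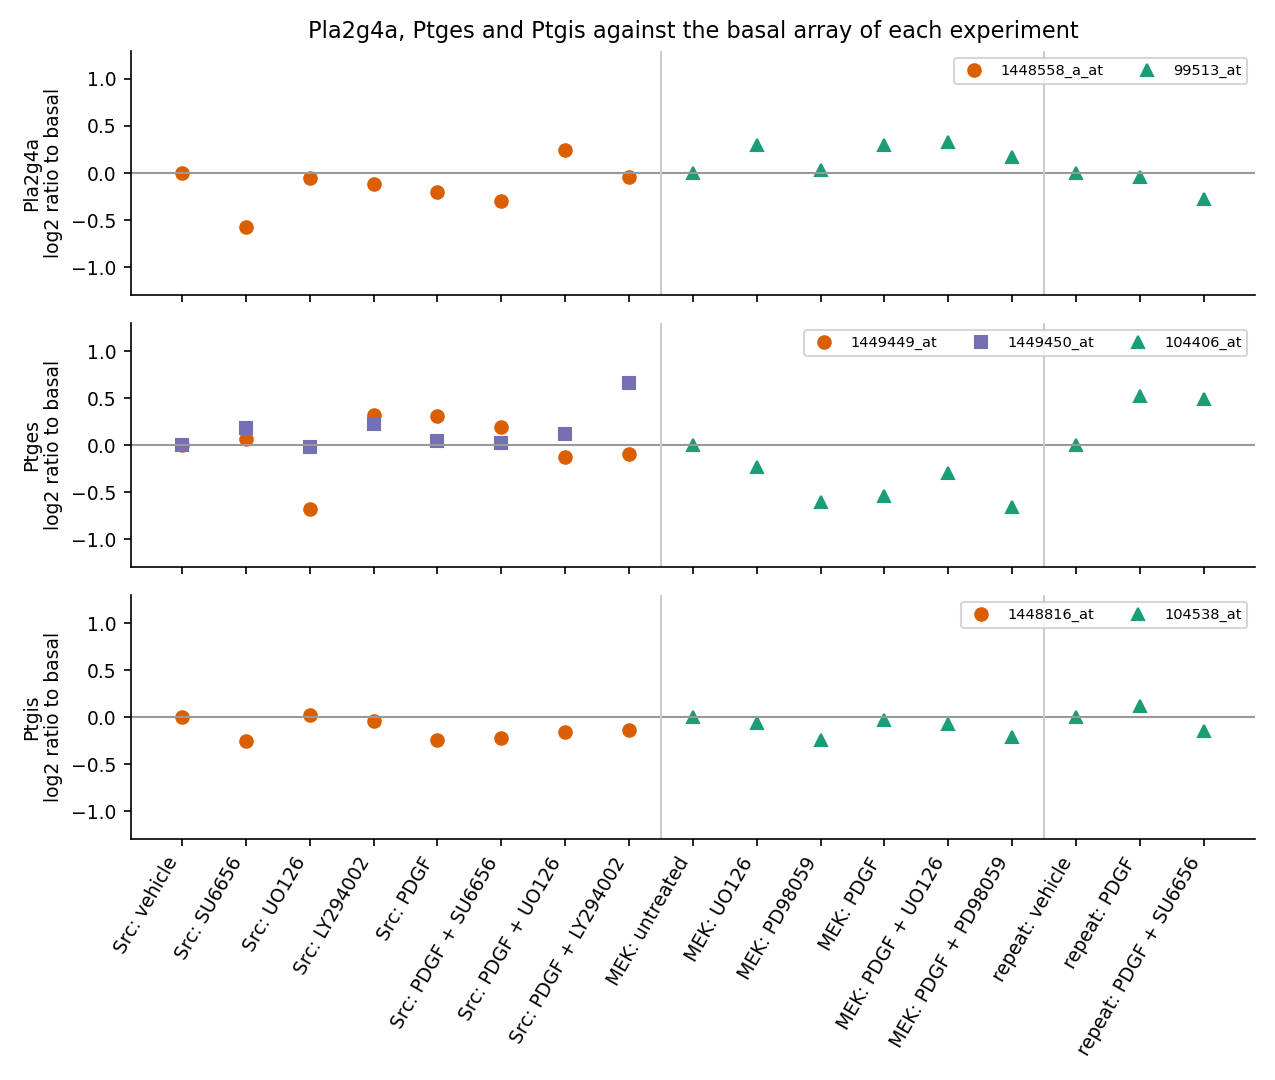
Log2 ratio of Pla2g4a, Ptges and Ptgis to the basal array of the same experiment on each of the 17 arrays, which are named along the horizontal axis with vertical lines between the experiments; each symbol is a probe set, and basal arrays are at 0. Ptgis stays between −0.25 and 0.12, while Ptges lies below 0 on every treated array of the MEK experiment and above 0 on both of the repeat.

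With PDGF present, Ptgs2 was lower on the arrays with SU6656 or PD98059 and near or above the array with PDGF alone on those with UO126 or LY294002; these ratios of single arrays are given with no test. With SU6656 the signal was 56.9% and 58.0% of that with PDGF alone in the Src experiment (log2 ratios −0.77 and −0.77) and 53.0% in the repeat (−0.95). With PD98059 it was 49.8% in the MEK experiment (−0.96). With UO126, which inhibits the same kinase as PD98059, it was 99.0% in the MEK experiment (−0.03) and 168% and 147% in the Src experiment (0.72 and 0.52). With LY294002 it was 127% and 116% (0.36 and 0.23). Set against all kept probe sets, the ratio was near the bottom for PD98059, with 2.60% of probe sets lower, and for SU6656, with 2.58% and 2.62% lower in the Src experiment and 3.69% in the repeat. For UO126 with PDGF 44.2% were lower in the MEK experiment, and 96.8% and 92.9% in the Src experiment. Few of these probe sets passed the test for PDGF, so the ranks do not compare Ptgs2 with other induced genes.

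**Figure D4:**
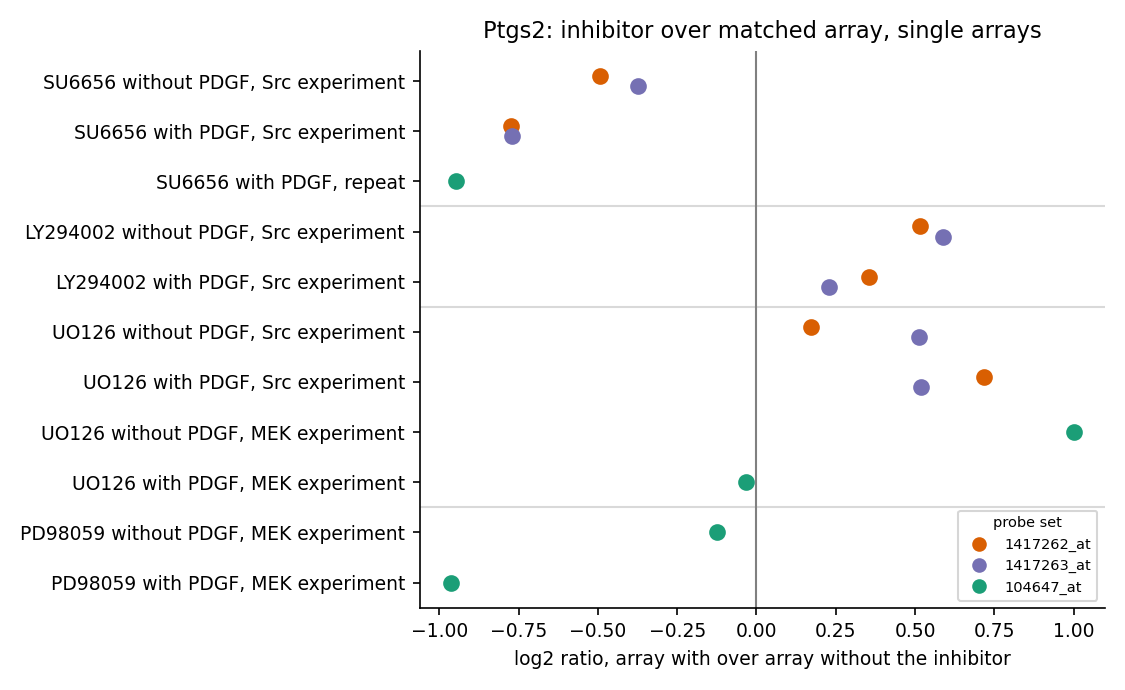
Log2 ratio of the Ptgs2 signal on an array with an inhibitor over the array of the same experiment without it, for each inhibitor, without and with PDGF; each point is 1 probe set and 1 pair of arrays. Every SU6656 and PD98059 point lies below 0 (−0.12 to −0.96), every LY294002 point above 0 (0.23 to 0.59), and UO126 ranges from −0.03 to 1.00.

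Without PDGF, at a much lower signal, Ptgs2 was below basal with SU6656 and, by little, with PD98059, and above it with UO126 and LY294002. SU6656 gave −0.49 and −0.37 in the Src experiment and PD98059 −0.12 in the MEK experiment. UO126 gave 1.00 in the MEK experiment (397 over 189.9 units) and 0.17 and 0.51 in the Src experiment, and LY294002 gave 0.51 and 0.59. Of all kept probe sets, 35.6% were lower for PD98059, and 8.64% and 13.8% for SU6656. For UO126 96.8% were lower in the MEK experiment and 71.9% and 93.1% in the Src experiment, and for LY294002 92.7% and 94.5%. The UO126 ratio of 1.00 has the untreated array with the high Gapdh 3′ to 5′ ratio as its denominator, and the PD98059 array of that experiment, at 176 units, was lower still. In signal units, the rise with PDGF under SU6656 was 56.4% and 56.8% of the rise without an inhibitor in the Src experiment. Under PD98059 it was 47.1%, and under UO126 it was 92.0% in the MEK experiment and 170.4% and 147.1% in the Src experiment. Under LY294002 it was 125.1% and 113.1%.

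At 1.5-fold, a size chosen after the data were seen, the members past it with PDGF present were 1 of 4 for PD98059 (Ptgs2; 16.2% of all kept probe sets), 0 of 4 for UO126 in the MEK experiment (14.4%), 1 of 6 for UO126 in the Src experiment (Ptgs2 1417262_at; 11.2%), 2 of 6 for SU6656 in the Src experiment (both Ptgs2; 9.82%), 1 of 4 for SU6656 in the repeat (Ptgs2; 17.4%) and 1 of 6 for LY294002 (Ptges 1449450_at at 0.62; 12.2%). Without PDGF they were 1 of 4 for UO126 (Ptgs2; 15.7%) and 1 of 4 for PD98059 (Ptges 104406_at at −0.60; 14.8%) in the MEK experiment. Still without PDGF, the Src experiment had 1 of 6 for UO126 (the dim Ptges 1449449_at at −0.68; 11.2%), 0 of 6 for SU6656 (11.3%) and 1 of 6 for LY294002 (Ptgs2 1417263_at; 11.6%). Ptgs2 was the gene past this size with SU6656 plus PDGF in both experiments that held the pair.

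In the additive limma fit of the Src experiment, which sets the 2 arrays of an inhibitor against the 2 vehicle arrays, 0 of 6 members passed for each inhibitor. At an unadjusted p under 0.05 there were 1, 2 and 2 of 6 for UO126, SU6656 and LY294002, against 1433, 1270 and 2104 of all 15838 probe sets. These members were Ptgs2 probe sets, except for Ptges 1449450_at with LY294002 (0.43). The shares of all probe sets past the adjusted threshold were 0.0442%, 0.107% and 0.511%. The Ptgs2 estimates for SU6656 were −0.63 and −0.57 (adjusted p 0.473 and 0.371), those for UO126 were 0.44 and 0.52 (0.552 and 0.332) and those for LY294002 were 0.44 and 0.41 (0.386 and 0.250). For 1417262_at the UO126 estimate was 0.10 without the PDGF and UO126 array and 0.79 without the UO126 array. The direct contrast of UO126 minus SU6656 was 1.08 (SE 0.198, adjusted p 0.0900) for 1417262_at and 1.09 (SE 0.140, adjusted p 0.0195, 95% interval 0.78 to 1.40) for 1417263_at. It called 1 of 6 members, against 0.215% of all probe sets. At an unadjusted p under 0.05 there were 3 of 6 members, against 1532 of 15838 probe sets. Beside Ptgs2 these included Pla2g4a 1448558_a_at at 0.53 (95% interval 0.13 to 0.93, adjusted p 0.383). The call on 1417263_at was lost without the SU6656 array (1.23, adjusted p 0.0597), without the PDGF and SU6656 array (0.95, 0.154) or without the PDGF and UO126 array (0.96, 0.130), while without the UO126 array both probe sets passed. This contrast was put forward with the difference already known, so it is no independent evidence of it.

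UO126 and PD98059 were compared in the same way in the MEK experiment. UO126 minus PD98059 was 1.03 for Ptgs2 (SE 0.175, 95% interval 0.64 to 1.42) and did not pass, with a limma adjusted p of 0.485. This contrast too was put forward with the difference already known, so the size and its interval are a description. Of the members 0 of 4 passed, 1 of 4 at an unadjusted p under 0.05, and across all probe sets 0% passed (456 of 8695 at an unadjusted p under 0.05). For Pla2g4a, Ptges and Ptgis the same contrast was 0.21, 0.37 and 0.16, with 95% intervals that include 0. Taking the MEK inhibitors together as replicates, their effect on Ptgs2 was −0.54 with PDGF (adjusted p 0.836), 0.48 without it (adjusted p 0.880) and −1.02 for the difference between these (adjusted p 0.999). These estimates hang on single arrays. The effect with PDGF was −1.005 without the PDGF and UO126 array and −0.07 without the PDGF and PD98059 array. The effect without PDGF was −0.08 without the UO126 array, 1.04 without the PD98059 array and 0.60 without the untreated array. The difference between them ran from −1.58 without the PD98059 array to −0.46 without the UO126 array. Each of these 3 contrasts called 0 of 4 members, also at an unadjusted p under 0.05, and the shares of all probe sets past the threshold were 0%, 0.0115% and 0% (625, 627 and 427 of 8695 at an unadjusted p under 0.05). The spread between UO126 and PD98059 on Ptgs2 is part of the error of these contrasts. SU6656 and PD98059 were used in different experiments and were not tested against each other.

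Around the members, 1 receptor gene rose with PDGF in both tables. Ptger4, the EP4 receptor of prostaglandin E, had 138 units with vehicle, 85.5 with SU6656, 193 with UO126 and 238 with LY294002 in the Src experiment (1424208_at). With PDGF it had 818.5 units alone, 656.5 with SU6656, 665 with UO126 and 836 with LY294002, with no overlap between the groups. In the MEK experiment 103362_at had 148 units untreated, 214 with UO126 and 101 with PD98059, then 772 with PDGF alone, 811 when UO126 was added and 618 when PD98059 was added. In the repeat it had 123.5 units with vehicle, 451 with PDGF and 454 with PDGF and SU6656. The PDGF effect was 2.08 (SE 0.170, limma adjusted p 0.000115) and 2.02 (SE 0.159, adjusted p 5.36e-05). Like Ptgs2, Ptger4 by 1424208_at and 103362_at was, without PDGF, highest with LY294002 in the Src and with UO126 in the MEK experiment. By these probe sets it was lowest with SU6656 and PD98059. SU6656 with PDGF gave −0.30 in the Src experiment and −0.01 in the repeat. A dim Ptger4 probe set of the Src experiment, dropped for its low mean, kept only part of this order. Without PDGF it had 13.4 units with vehicle, 27.1 with SU6656, 5.8 with UO126 and 29.6 with LY294002. With PDGF it had 149.7 units alone, 143.1 with SU6656, 67.4 with UO126 and 117.3 with LY294002. Beside Ptger4 the receptor list held 0 called of the other 3 genes tested in the Src experiment and 0 of 2 in the 9-array table.

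Among other prostanoid synthases 1 of 4 tested genes fell in the Src experiment and 0 of 4 changed in the 9-array table. The gene that fell was Ptgds, which makes prostaglandin D, at −1.11 by 1423859_a_at (SE 0.201, adjusted p 0.0158). This probe set had 296 units with vehicle and 175 with PDGF, and 48 with PDGF and SU6656 as its lowest array. Its call was lost without the LY294002 array (−1.08, adjusted p 0.0765), the SU6656 array (−0.88, 0.0585) or the PDGF and LY294002 array (−1.08, 0.0688), and without arrays paired by inhibitor (0.209). Another Ptgds probe set, 1423860_at, gave 0.26 in the same arrays (adjusted p 0.700) and 102105_f_at gave 0.01 in the 9-array table, so probe sets of this gene disagreed. In the list of other phospholipases and arachidonate supply 0 of 18 and 0 of 12 tested genes passed, with medians of −0.04 and 0.10. Acsl4, an acyl-CoA synthetase that prefers arachidonic acid, stood nearest the threshold at 0.50 (SE 0.121, adjusted p 0.0601), and at 0.18 in the 9-array table. For transport and breakdown the counts were 0 of 5 and 0 of 3 (medians −0.03 and 0.14), and for the lipoxygenase branch 0 of 6 and 0 of 5 (medians −0.11 and 0.16). Over all genes at their brightest probe set the medians were −0.05 and −0.04, and 3.3% of 9221 and 1.85% of 6364 genes passed.

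The genes whose pattern was most like that of Ptgs2 were sought over the 14 treated arrays, each as its log2 ratio to the basal array of its experiment, among 5529 genes kept in both tables. The smallest root mean square differences from Ptgs2 were those of Atf3 (0.478), Phlda1 (0.652), Junb (0.689), Btg2 (0.695) and Egr2 (0.731), against a median of 2.98 over all genes. Atf3, Junb and Egr2 encode transcription factors of the immediate-early response. Pearson's r over the same ratios was 0.961 for Atf3, 0.957 for Phlda1, 0.931 for Junb, 0.932 for Btg2 and 0.948 for Egr2. By r alone Ptger4 ranked highest, at 0.962, but it ranked 20th by the difference (1.29), since its ratios with PDGF were smaller. Ranked by r, or on either table alone, 3 of the nearest 5 genes were shared each time. Like Ptgs2, all 5 nearest genes had lower ratios with PDGF plus SU6656 or PD98059 than with PDGF alone. For Phlda1 SU6656 gave 2.30 against 3.09 in the Src experiment and 3.02 against 4.07 in the repeat, and PD98059 gave 2.38 against 4.09. For Atf3 the same comparisons were 3.45 against 3.72, 2.78 against 3.08 and 3.26 against 3.72. The ratios within an experiment share their basal array and arrays with PDGF stand apart from those without it, so these values describe likeness and carry no test.

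**Figure D5:**
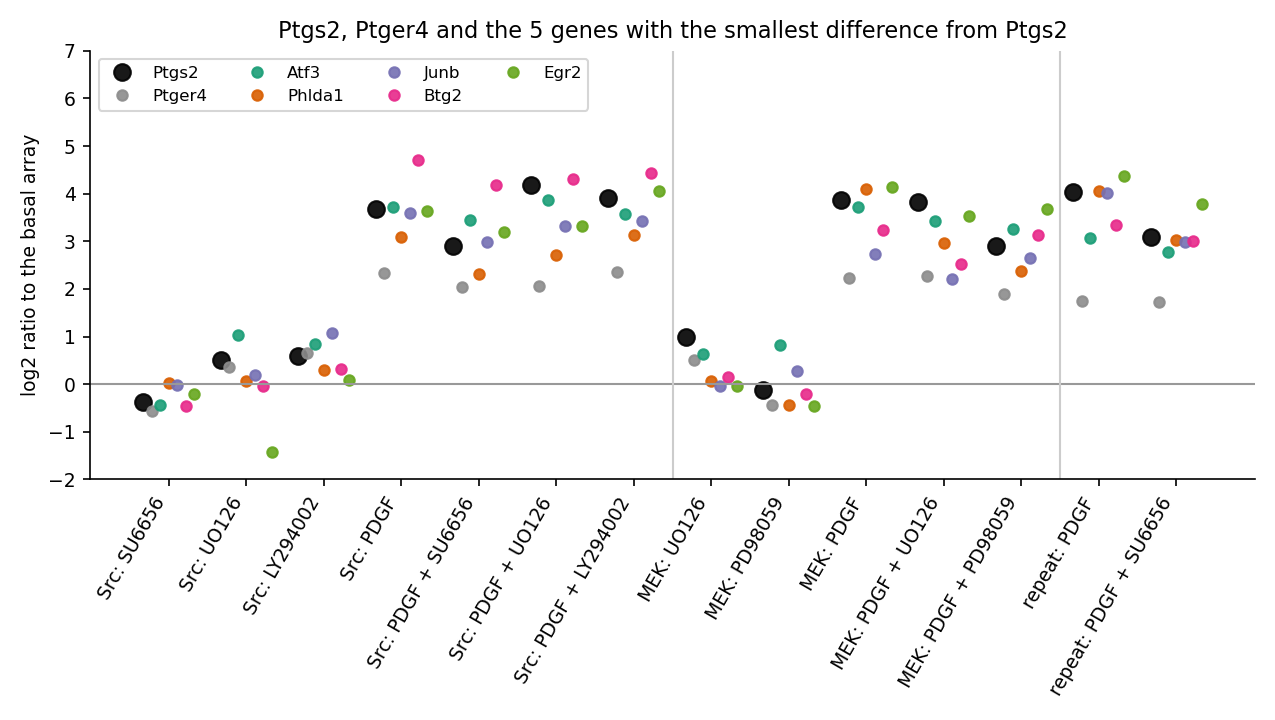
Log2 ratio to the basal array of the same experiment on the 14 treated arrays for Ptgs2 (large black points), Ptger4 (grey) and the 5 genes with the smallest root mean square difference from Ptgs2; points of 1 array are set side by side. Ptgs2 and the 5 genes lie above 2 on every array with PDGF, and Ptgs2 lies between −0.37 and 1.00 on the arrays without it.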

How the data were processed

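RNA of NIH 3T3 cells was measured on 17 arrays of 2 designs. The deposited values are linear intensity, 1 number per probe set and array, and their trimmed means show that the authors scaled the arrays alike; software and build: not given in the sources used here. Control probe sets were left out (64 and 66). Intensity was quantile normalised within each table, and log2(value + the table's 20th percentile, 36.3 and 21.2 units) was taken. The 30% of probe sets with the lowest mean were dropped, which left 15838 and 8695, all 10 member probe sets among them. limma 3.58.1 (R 4.3.3) was fitted within a table (lmFit, eBayes with a variance trend, two-sided, Benjamini-Hochberg over all kept probe sets, threshold 0.05) on 3 residual degrees of freedom (2 for UO126 minus PD98059), and the residual also holds interactions without a term. Ratios of single arrays stayed within an experiment. The number of arrays limits the precision.

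Gene names came from the platform annotation (20380 and 10833 probe sets with 1 gene, 691 and 396 with several, 1555 and 1193 with none), with 20351 and 10817 symbols updated through Entrez IDs against RefSeq GRCm38.p6. The text names every probe set given to a single member gene, the pathway genes past the threshold and the one nearest to it, and the 5 genes most like Ptgs2. The members and lists were chosen with earlier results of these data known. The fits were tested on simulated data. Alternatives were median scaling, the deposited values, offsets of 8 and 100 units, no filter, no trend, no pair block, the MEK pairs alone and leaving out each array.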

Additional observations from a re-analysis of the deposited data

Results flagged for a closer look

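The contrast of UO126 minus SU6656 on Ptgs2 was flagged because 1 probe set passed the direct test. The contrast was put forward with the difference already known, so it is no independent evidence of it. Its call was lost when some single arrays were left out, as given above. For probe set 1417263_at it was 1.09 (limma adjusted p 0.0195), with UO126 above and SU6656 below vehicle in 4 of 4 comparisons of single arrays. The other Ptgs2 probe set gave 1.08 and did not pass (adjusted p 0.0900). Among the 10 member probe sets, 0 had a pair with PDGF that lay far enough from the other 3 to pass Dixon's 95% limit for 4 values.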

How the results depend on the processing

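The PDGF calls on Ptgs2 were made under each of 15, 15 and 16 alternatives, with estimates of 3.31 to 4.07 (1417262_at), 3.23 to 3.62 (1417263_at) and 3.04 to 3.64 (104647_at). Ptger4 was called under each of 15 and 16 (1.75 to 2.28 and 1.61 to 2.11). No other member passed for PDGF under any of them. The count of member probe sets called for UO126 minus SU6656, 1 as reported, was 0 with no filter (adjusted p 0.0547), 0 with no variance trend (0.305) and 0 to 2 when 1 array was left out; its estimate for 1417263_at stayed at 0.95 to 1.23. With an offset of 100 units, PDGF over basal in the Src experiment was 3.27 for 1417262_at. The call on Ptgds was lost under 6 of 15 alternatives. Counts over all probe sets moved more. For PDGF they were 525 as reported, 184 with no trend, 244 with no pair block and 262 to 385 with an array left out, and 147 in the 9-array fit, 60 there with no pair block and 98 to 111 with an array left out. For LY294002 they were 81, 0 and 4 to 106, for UO126 minus SU6656 34, 0 and 11 to 30, for SU6656 17, 0 and 0 to 19, and for UO126 7, 0 and 0 to 8. MEK inhibition with PDGF called 0, and 3 after median scaling. The cause of these shifts was not tested.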
